A study of Mus musculus with 18 samples.

Results

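Circular RNAs are closed RNA rings, in most of which a downstream 5′ splice site has been joined back to an upstream 3′ splice site. The deposited circular RNA table of mouse testis sorts its 7391 circles by the annotation they overlap, and 290 of them carry the classes antisense or intronic. The class was the only criterion for including a circle here, and no count entered the choice. The table assigns each of the 172 antisense circles to a gene of the opposite strand, and each of the 118 intronic circles to a gene whose introns would hold it. Not every circle lies within the RefSeq span of the gene it is assigned to, as given below. The antisense circles made up 2.33% of all circles, and the intronic circles 1.60%.

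The study set testes of adult mice with a knock-in allele of Taf7l (TKI) against testes of adult mice with the wild type gene (WT), all of the strain C57BL/6. Taf7l is X-linked and encodes a germ-cell relative of the TFIID subunit Taf7. Frozen testes gave total RNA that went into stranded libraries, with 3 TKI and 3 WT libraries of whole testis used here. Of the 18 samples in the labels, 12 are sorted germ cells (pachytene spermatocytes or round spermatids) and are not analysed here. The series concerns a missense mutation of the gene, but the sample labels give neither the residue changed in the knock-in allele nor whether the libraries came from separate animals. The p-values therefore measure the spread between libraries, part of which may be technical.

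Most circular RNAs of animal cells are made of exons, when the spliceosome joins the end of an exon to the start of the same or an earlier exon. Some intron sequence also persists as a ring, when the lariat cut out by splicing escapes the debranching enzyme Dbr1 and loses its tail. Antisense circles need a transcript from the strand opposite to the annotated gene, such as an antisense long noncoding RNA. The testis transcribes an unusually wide range of noncoding sequence, above all in meiotic and post-meiotic germ cells.

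Whether a circle closes at splice sites shows in the bases just outside both its ends. For the circles below, a single end lay in a RefSeq promoter window and could be read, and the other end was not read. The 3 stretches that hold such an end are printed first. They are RefSeq promoter windows of GRCm38.p6, given 5′ to 3′ on the strand of the circle, with the 2 bases just outside the circle in capitals. On chromosome 9, at chr9:124423537-124423836 on the plus strand, 4 antisense circles assigned to Ppp2r3d begin right after the capital AG. On chromosome 16, at chr16:10796794-10796903 on the plus strand, an antisense circle over Prm1 ends right before the capital GT. On chromosome 6, at chr6:46957784-46957829 on the minus strand, an antisense circle over Cntnap2 begins right after the capital AG.
Ppp2r3d circles: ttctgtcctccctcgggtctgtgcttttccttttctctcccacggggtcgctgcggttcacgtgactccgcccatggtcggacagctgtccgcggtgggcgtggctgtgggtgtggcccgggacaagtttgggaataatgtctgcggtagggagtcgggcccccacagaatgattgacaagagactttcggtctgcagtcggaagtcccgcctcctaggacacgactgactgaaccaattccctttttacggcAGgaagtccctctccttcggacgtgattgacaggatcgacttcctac
Prm1 circle: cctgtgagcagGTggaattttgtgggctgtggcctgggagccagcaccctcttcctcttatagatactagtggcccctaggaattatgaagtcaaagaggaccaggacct
Cntnap2 circle: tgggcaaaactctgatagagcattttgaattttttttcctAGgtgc

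The start shared by the Ppp2r3d circles is base 124423792, 5 bases past the annotated start of 4930526I15Rik at 124423787, a noncoding RNA gene on the circles' own strand. The Prm1 circle ends at base 10796804, 19 bases inside Prm1 from its start at 10796823, on the opposite strand to Prm1. In the whole table, 128 circle ends fell in a RefSeq promoter window, counting AG before a 5′ end or GT after a 3′ end. All 128 had these bases on the strand given for the circle, and 6 of them were ends of antisense circles and 0 of intronic circles. The start shared by the 4 Ppp2r3d circles makes up 4 of those 6. AG takes up 7.69% and GT 4.98% of the dinucleotide positions of these windows. Whether the circle caller required these bases is not given in the sources used here. Of 3 promoter motifs searched on both strands, CCAAT was in the 4930526I15Rik window and in 37.4% of 32851 windows. TATAAA was in the full window of Gm38801, which holds the start of the Cntnap2 circle, and in 13.6% of windows. TGACGTCA was in none of these 3 windows and in 1.79% of all windows.

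In each library, 14381 to 20127 circle counts stood beside 17431309 to 21446420 gene counts. Taf7l had 472, 525 and 581 counts in TKI testes and 507, 551 and 531 in WT testes. Its log2 difference was −0.11 ± 0.08 (SE; adjusted p = 0.632, edgeR's quasi-likelihood test with Benjamini-Hochberg adjustment), and a gene count does not show which allele a library carries. Markers of spermatogonia, spermatocytes, round and elongating spermatids, Sertoli, Leydig, peritubular myoid cells and macrophages were all above 0. Among the markers of tissue outside the testis, 4 of the epididymis and 2 of the liver, only Lcn5 of the epididymis was at 0 in every library. The summed epididymis markers ran from 0.0517 to 9.52 CPM in TKI testes and from 0.164 to 12.0 CPM in WT testes. The summed liver markers ran from 2.79 to 7.15 CPM in TKI testes and from 3.59 to 4.77 CPM in WT testes. The summed Leydig markers reached 1221 to 1233 CPM in TKI testes and 1036 to 1186 CPM in WT testes, and the summed peritubular myoid markers 174 to 200 CPM in TKI testes and 148 to 170 CPM in WT testes. Their part in the results below was not tested. In whole testis, fewer cells of a type and less RNA per cell cannot be told apart.

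Both classes were rare and thinly counted. The antisense circles held 1098 counts in all, 1.11% of circle counts, and the intronic circles 647 counts, 0.655%. An antisense circle had a median of 4 counts over the 6 libraries and an intronic circle a median of 3, against 6 for the 5805 circles made of annotated exons and 4 for exon-intron and for intergenic circles. The deposited table has no circle under 2 counts in total, and 67 antisense circles (39.0%) and 50 intronic circles (42.4%) stood at that minimum. Of the antisense circles 95 (55.2%) were seen in 1 library, and of the intronic circles 68 (57.6%), against 25.9% of the exon circles, 38.6% of the exon-intron circles and 43.2% of the intergenic circles. In all 6 libraries 11 antisense circles (6.40%) and 4 intronic circles (3.39%) had a count above 0, against 16.2% of the exon circles, 8.38% of the exon-intron circles and 6.96% of the intergenic circles. None of the 290 has a name from the circle catalogue that the table cites, as is also true of all 273 intergenic circles. Such names were held by 8 of 752 exon-intron circles and 218 of 5805 exon circles.

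A few circles held much of each class. The 10 most counted antisense circles took 38.0% of the antisense counts and the 10 most counted intronic circles 41.4% of the intronic counts, against 10.5% for the top 10 exon circles. The share of the top 10 was higher still among intergenic circles (55.1%) and circles of 1 exon (51.5%). Among intronic circles, 2 circles of 1 gene, Gm29427, took 162 of the 647 counts.

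**Figure D1:**
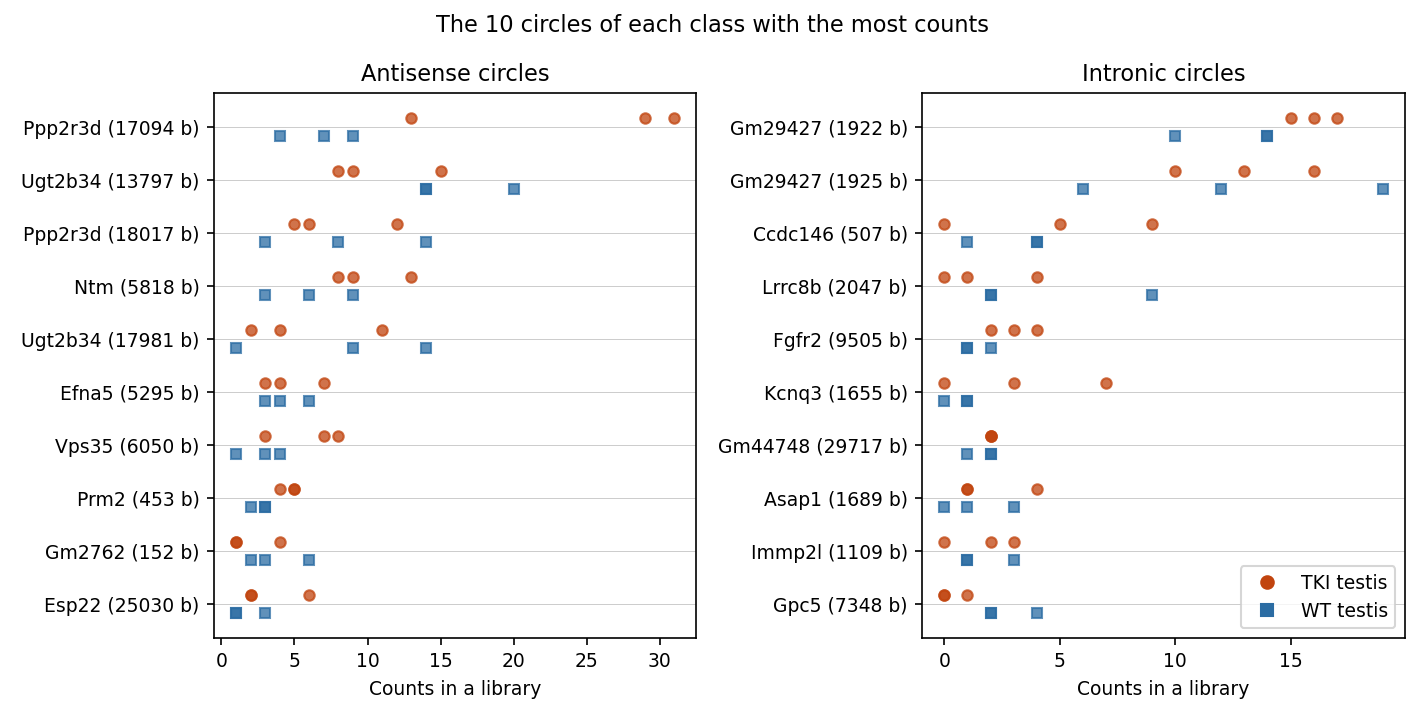
Counts per library (horizontal axis) of the 10 most counted circles of each class, named by annotated gene and length in bases, with TKI libraries as round points and WT libraries as squares below them. The 17094-base Ppp2r3d circle reaches 13 to 31 counts in TKI testes and 4 to 9 in WT testes. Of the 2 Gm29427 circles, the longer overlaps between genotypes in these counts. The shorter is higher in every TKI library than in any WT library as plotted, and overlaps once scaled by library.

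Each circle of both classes spanned its whole genomic stretch. The length in the table equalled the distance between its ends in 172 of 172 antisense and 118 of 118 intronic circles. The same held for 273 of 273 intergenic circles, 271 of 271 circles of 1 exon, 155 of 752 exon-intron circles and 0 of 5805 exon circles. Antisense lengths ran from 150 to 95614 bases with a median of 1390.5 and quartiles of 262.5 and 16203.5. Intronic lengths ran from 145 to 67248 bases with a median of 2042.5 and quartiles of 602.5 and 10801 bases. Exon circles, whose length leaves out introns, had a median of 783 bases. Antisense circles were spread toward both extremes: 62 (36.0%) were at most 500 bases long and 51 (29.7%) were over 10 kb. Of the intronic circles, 26 (22.0%) were at most 500 bases long and 30 (25.4%) were over 10 kb. At most 500 bases long were 51.7% of circles of 1 exon, 25.7% of exon circles, 7.69% of intergenic and 2.53% of exon-intron circles. Over 10 kb were 45.1% of intergenic, 33.9% of exon-intron and 0.0345% of exon circles, and 0% of circles of 1 exon. The table records no splicing inside these rows, so a length over 10 kb is the distance between the joined ends and not a measured RNA length.

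**Figure D2:**
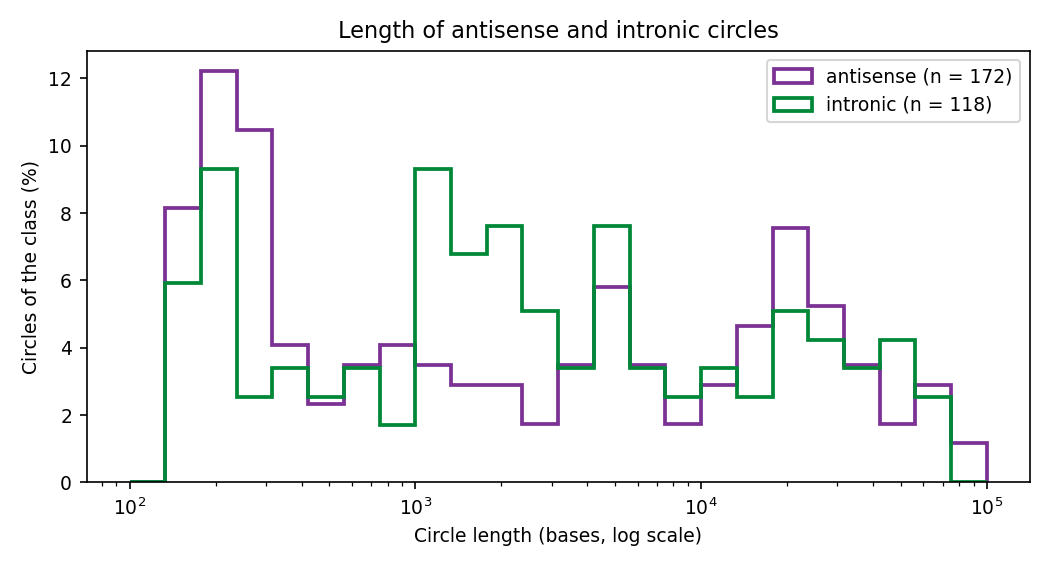
Share of the circles of a class (percent, vertical axis) by length in bases on a log scale, for the 172 antisense and 118 intronic circles. Antisense circles pile up below 500 bases and again above 10 kb, while intronic circles centre near their median of 2042.5 bases.

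The longest antisense circles were 95614 and 95577 bases long, 2 circles over 4931408C20Rik with a shared start, and had 2 and 4 counts. The next was a 74189-base circle over Hdac8, a histone deacetylase gene on the X chromosome. It shared its start with a 24673-base circle, and each of the pair had 1, 2 and 0 counts in TKI testes and 0 in every WT testis. The shortest antisense circles lay over H13 and Igf1r (150 bases each) and Gm2762 (152 bases). The Gm2762 circle had 4, 1 and 1 counts in TKI testes and 6, 2 and 3 in WT testes, so a 152-base ring was seen in all 6 libraries. The longest intronic circles lay in Spag16 (67248 bases), a flagellar gene, in Fam53b and Eef1akmt2 under the table's name Fgfr2 (58072 bases) and in Gm32828 (56404 bases). The shortest intronic circles, in AC102342.2, Gng8 and Syndig1, were 145 to 153 bases long and had 2 counts each.

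The class names already imply a strand relative to the assigned gene, and RefSeq gave the same relation. This compares annotations and does not check the strand of a circle. All 134 antisense circles whose gene has a RefSeq strand lay on the opposite strand, and 38 had no strand to compare. All 77 intronic circles with a known gene strand lay on that strand, and 41 had none. Positions held up less fully. Of the antisense circles, 127 lay inside the RefSeq span of the assigned gene, 29 overlapped it in part, 7 lay outside it and 9 could not be matched by symbol. Of the intronic circles, 94 lay inside, 9 outside and 15 could not be matched. A RefSeq gene known to lie on the circle's own strand overlapped 31 antisense circles. For the rest no such gene was found, and genes without a known strand could not be counted.

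Some circles shared an end with another circle of their strand. This held for 31 antisense circles, 29 of them with another antisense circle and 5 with an exon-intron circle. It held for 27 intronic circles, 21 with another intronic circle and 11 with an exon-intron circle. No circle of either class shared an end coordinate with a circle of the opposite strand. The gene named for the circle also gave a circle from its own exons for 40 of 172 antisense circles and for 72 of 118 intronic circles. A circle on the opposite strand was overlapped by 16 antisense circles (9.30%) and by 2 intronic circles (1.69%).

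The ends of a single antisense circle enclose a microRNA locus on the opposite strand. The 4981-base circle over Esyt1, an extended synaptotagmin gene, spans the Mir6916 hairpin of the minus strand while the circle is on the plus strand. Whether the ring keeps this stretch was not measured. The mature 5p arm lies at chr10:128512005-128512025 on the minus strand of GRCm38.p6, and its RefSeq sequence is given with the seed, bases 2 to 8, in capitals.
mmu-miR-6916-5p: cAGGAGGAuggagaugaguca

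The Esyt1 circle had 1, 0 and 1 counts in TKI testes and 1, 0 and 5 in WT testes. The genotypes overlapped, and 5 of the 8 counts came from WT library 3.

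Short antisense circles lay over genes with abundant linear RNA. For the 62 antisense circles of at most 500 bases, the gene underneath had a median of 29.9 FPKM (deposited values, mean of the 6 libraries), and 50 of the 60 with a value (83.3%) were over 10 FPKM. For the 65 antisense circles over 5000 bases the median was 6.04 FPKM and 41.7% were over 10 FPKM. Intronic circles ran the same way: the median was 17.9 FPKM for the 26 of at most 500 bases and 6.57 FPKM for the 38 over 5000 bases. The median was 14.9 FPKM over exon circles and 1.85 FPKM over all genes in the table. Circles of 1 gene share their value, so these medians are a description of the table. Among antisense circles the counts went the other way. The 65 long antisense circles held 611 of the 1098 antisense counts, and the 62 short ones held 240.

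**Figure D3:**
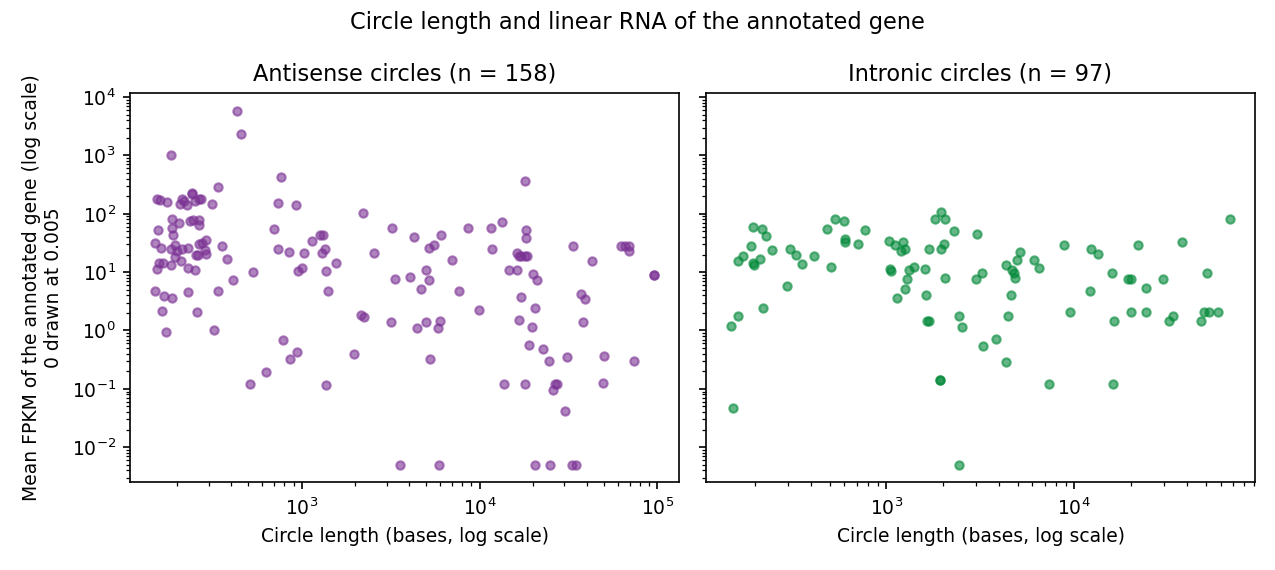
Circle length in bases against the mean FPKM of the annotated gene, both on log scales, with 1 point for each circle whose gene has a value and values of 0 drawn at 0.005. The top left of the antisense panel holds the circles over protamine and transition protein genes, up to 5735 FPKM.

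A few of the genes with the most linear RNA in this testis had an antisense circle. Of the 100 most abundant genes, 4 had an antisense circle, 12 a circle of annotated exons and 6 a circle of 1 exon. Of the 135 genes under antisense circles with an FPKM value, 4 (2.96%) ranked in the 100 most abundant, against 0 of 69 genes with intronic circles and 12 of 2485 (0.483%) with circles of annotated exons. Genes with circles of 1 exon were close to the antisense share, with 6 of 245 (2.45%). Prm1 ranked first at 5735 FPKM, Prm2 at rank 3 with 2360, Tnp2 at rank 23 with 1017 and Clu at rank 77 with 424 FPKM. Prm1 and Prm2 encode the protamines that pack sperm DNA and Tnp2 a transition protein that precedes them, while Clu encodes clusterin, a secreted chaperone. None of the 4 genes had a circle from its own exons in the table.

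The antisense circle over Prm2, 453 bases at chr16:10791405-10791857, had 5, 4 and 5 counts in TKI testes and 3, 3 and 2 in WT testes. Every TKI library was above every WT library, and the fitted log2 difference was 0.62 ± 0.88 (SE; adjusted p = 0.979, edgeR's quasi-likelihood test). The 430-base Prm1 circle had 0 counts in all TKI testes and 0, 2 and 2 in WT testes. The 185-base Tnp2 circle at chr16:10788388-10788572 had 0, 0 and 2 counts in TKI testes and 2, 0 and 1 in WT testes. The 769-base Clu circle had 2 counts in TKI library 1 and 0 elsewhere. Of these 4, the Prm2 circle was the one seen in all 6 libraries, and the genotypes overlapped in the other 3.

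Neither class differed in its share of circle counts between genotypes beyond the spread of the libraries. The antisense share was 1.33%, 1.13% and 0.899% in TKI testes and 0.971%, 1.44% and 0.992% in WT testes. The means were 1.12% ± 0.215 in TKI testes and 1.13% ± 0.265 in WT testes (SD, n = 3 each), and the TKI and WT libraries overlapped. The intronic share was 0.476%, 0.709% and 0.725% in TKI testes and 0.572%, 0.793% and 0.659% in WT testes. The means were 0.637% ± 0.140 in TKI testes and 0.675% ± 0.111 in WT testes, again with overlapping libraries. TKI library 1 was the lowest of the 6 for intronic circles and the second highest for antisense circles. Exact Clopper-Pearson 95% intervals from counting error alone were 1.16% to 1.52% for the antisense share and 0.376% to 0.594% for the intronic share of that library.

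**Figure D4:**
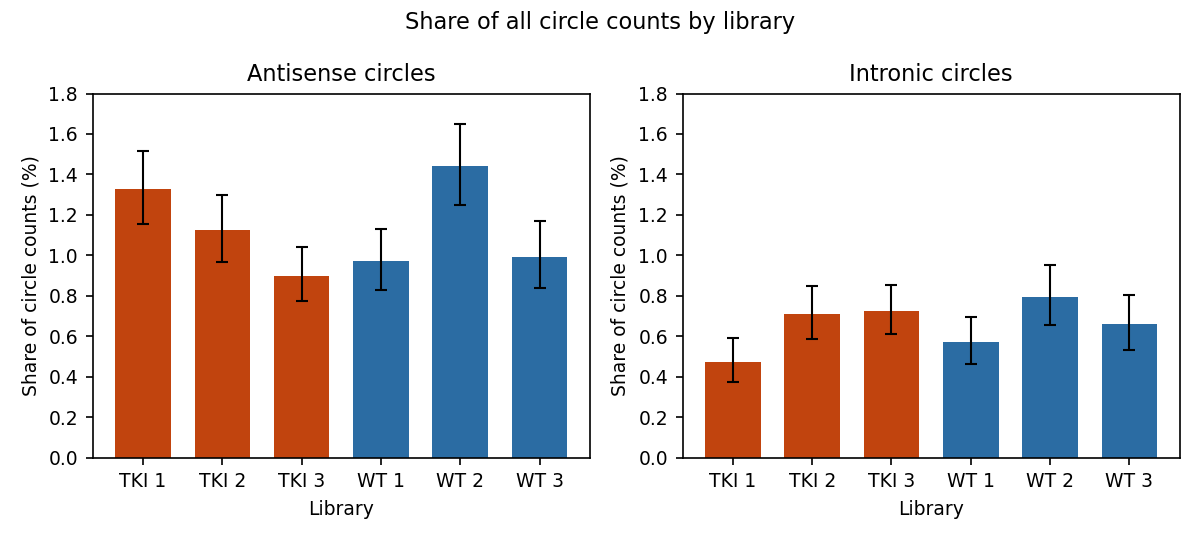
Share of all circle counts of a library (percent) held by antisense circles (left) and intronic circles (right), with TKI libraries to the left of WT libraries and exact 95% counting intervals as bars. The genotypes overlap in both classes.

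The number of circles seen also overlapped. Antisense circles above 0 numbered 70, 55 and 58 in TKI testes and 63, 63 and 55 in WT testes. Intronic circles above 0 numbered 23, 38 and 50 in TKI testes and 40, 41 and 34 in WT testes. The TKI libraries spread most for intronic circles, from 23 to 50, and 2 of the 3 lay outside the WT range on opposite sides. Circles seen in TKI testes only numbered 54 among antisense and 39 among intronic circles, and in WT testes only 52 and 37. Of the circles, 66 of 172 antisense and 42 of 118 intronic circles had counts in TKI and WT testes, against 4580 of all 7391. The largest count of a circle seen in 1 library was 6 for antisense circles and 8 for intronic circles, where it came from a 1622-base circle of Umad1 in WT library 3.

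Of the antisense circles, 53 had a count in at least 3 libraries and were tested, and of the intronic circles 27. edgeR's quasi-likelihood test called 0 of the 53 and 0 of the 27 at an adjusted p under 0.05, against 0% of all 3887 circles tested, and DESeq2 also called 0. At an unadjusted p under 0.05 stood 2 antisense and 0 intronic circles, against 4.91% of all circles tested (191). DESeq2 put 70 circles under that limit. The median log2 difference between TKI and WT testes was −0.10 over the 53 antisense circles (23 above 0, 30 below), 0.08 over the 27 intronic circles (14 above, 13 below) and 0.03 over all circles tested. The SE of a single antisense circle's log2 difference had a median of 1.44. The authors' deposited table holds no antisense or intronic circle with an adjusted p under 0.05.

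For 3 of the 53 antisense circles (5.66%) and 3 of the 27 intronic circles (11.1%), the scaled counts of the genotypes did not overlap, against 10.7% of all circles tested. The total shares of both classes lie near or below the 10.7% of all circles tested. Of all circles tested, 5.69% were higher in TKI testes without overlap and 4.97% lower. Without overlap stood 2 of the 53 antisense circles higher and 1 lower, and 1 of the 27 intronic circles higher and 2 lower. Among antisense circles these were the 17094-base Ppp2r3d circle and the Prm2 circle, higher in TKI testes, and a 291-base circle over Sdc4, a syndecan, lower in TKI testes with 0, 0 and 1 counts against 1, 2 and 1 in WT testes. Among intronic circles 1 was a 24094-base circle under the name Fgfr2, higher in TKI testes. It had 2, 1 and 2 counts in TKI testes and 1, 0 and 0 in WT testes. The other 2 were circles in Gpc5 and Magi2, lower in TKI testes. The Sdc4, Fgfr2 and Magi2 circles tied at 1 count between genotypes before scaling, so only the scaling by library separated them.

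The antisense circle with the most counts had the lowest adjusted p of all circles tested. It is 17094 bases long, at chr9:124423792-124440885 on the plus strand, and the table assigns it to Ppp2r3d, a regulatory subunit gene of protein phosphatase 2A. It had 31, 13 and 29 counts in TKI testes and 9, 7 and 4 in WT testes, with no overlap and TKI library 2 closest to the WT libraries. Its level was 1578 ± 662 CPM in TKI testes and 477 ± 139 CPM in WT testes (SD, n = 3 each), relative to circle counts. The log2 difference was 1.69 ± 0.41 (SE), with an adjusted p of 0.143 in edgeR's quasi-likelihood test, so it was not called. Without TKI library 2 the log2 difference was 2.002 and the adjusted p 0.00629, while over the other alternatives the log2 difference ran from 1.47 to 1.94 and the adjusted p from 0.0784 to 0.993. The authors' deposited table gives this circle a log2 ratio of 1.69, a p of 0.000918 and an adjusted p of 1.

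The other 3 circles with the same start did not follow it. The 18017-base circle had 6, 12 and 5 counts in TKI testes and 8, 14 and 3 in WT testes, a log2 difference of −0.26 ± 0.54 (SE; adjusted p = 0.979, edgeR's quasi-likelihood test). The 16705-base circle had 0, 2 and 1 counts in TKI testes and 0, 0 and 4 in WT testes. The 18490-base circle had 2, 0 and 0 counts in TKI testes and 1, 2 and 1 in WT testes. The genotypes overlapped in all 3, and whether their differences differ from that of the 17094-base circle was not tested. Summed over the 4, the counts were 39, 27 and 35 in TKI testes and 18, 23 and 12 in WT testes, without overlap and with 73 of the TKI counts from the 17094-base circle. Linear Ppp2r3d RNA was 11.6 ± 0.947 CPM in TKI testes and 12.4 ± 0.228 CPM in WT testes, a log2 difference of −0.10 ± 0.11 (SE; adjusted p = 0.795, edgeR's quasi-likelihood test). RefSeq places Ppp2r3d 32.1 to 33.9 kb away from the 4 circles, and the circles overlap 4930526I15Rik on their own strand.

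**Figure D5:**
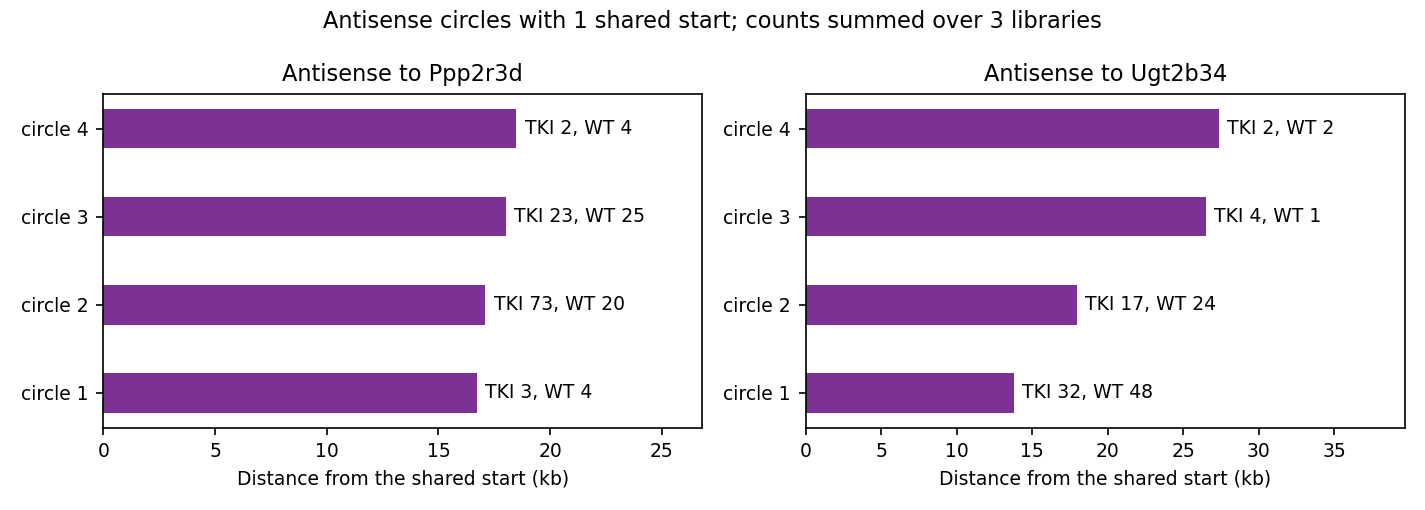
Extent of the 4 antisense circles assigned to Ppp2r3d (left) and of the 4 assigned to Ugt2b34 (right), as distance in kb from the start they share, with counts summed over the 3 TKI and the 3 WT libraries. For Ppp2r3d, 1 of the 4 circles has 73 counts in TKI and 20 in WT testes.

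A second group of 4 antisense circles shared a start at base 86891228 of chromosome 5, opposite to Ugt2b34, a glucuronosyltransferase gene of steroid and drug conjugation. Linear Ugt2b34 RNA was nearly absent at 0.12 FPKM. The 13797-base circle had 8, 15 and 9 counts in TKI testes and 14, 20 and 14 in WT testes. The genotypes overlapped, and the log2 difference was −0.74 ± 0.41 (SE; adjusted p = 0.979, edgeR's quasi-likelihood test). The 17981-base circle had 4, 11 and 2 counts in TKI testes and 1, 14 and 9 in WT testes, and library 2 of each genotype was the highest. The 26497-base circle had 4 counts in TKI and 1 in WT testes, and the 27369-base circle 2 in each. Over the 4 circles, the counts were 14, 29 and 12 in TKI testes and 16, 34 and 25 in WT testes, which overlapped.

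The remaining frequent antisense circles overlapped between genotypes, apart from the Prm2 circle described above. The 5818-base circle over Ntm, a neural adhesion gene, had 8, 9 and 13 counts in TKI testes and 3, 9 and 6 in WT testes (log2 difference 0.53 ± 0.55, SE). The 5295-base circle over Efna5, an ephrin ligand gene, had 3, 7 and 4 counts in TKI testes and 6, 4 and 3 in WT testes. The 6050-base circle over Vps35, a retromer subunit gene, had 8, 3 and 7 counts in TKI testes and 4, 3 and 1 in WT testes (log2 difference 0.99 ± 0.81, SE). The 25030-base circle over Esp22, a gene at 0 FPKM, had 6, 2 and 2 counts in TKI testes and 1, 3 and 1 in WT testes. In each, at least 1 TKI library lay at or below a WT library.

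Izumo3, Muc4 and Cntnap2 also had 3 or more antisense circles. The 4 circles over Izumo3, a sperm gene of acrosome formation, were 33401 to 69276 bases long and together had 0, 3 and 6 counts in TKI testes and 7, 4 and 2 in WT testes. The 3 circles over Muc4, a membrane mucin gene, had 5, 6 and 3 counts in TKI testes and 4, 0 and 6 in WT testes. The 3 circles over Cntnap2, a neuronal adhesion gene, had 2, 4 and 2 counts in TKI testes and 3, 1 and 4 in WT testes. None of these sums separated the genotypes.

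The other antisense circle at an unadjusted p under 0.05 was a 2160-base circle over the transcription factor gene Zfhx3. It had 4, 0 and 8 counts in TKI testes and 1, 0 and 0 in WT testes, so the genotypes overlapped at 0. The ratio of 12 counts to 1, scaled by circle totals, was 10.5 with an exact 95% counting interval from 1.55 to 449, which covers counting error only. The fitted log2 difference was 2.99 ± 1.46 (SE; adjusted p = 0.979, edgeR's quasi-likelihood test). Linear Zfhx3 RNA was 14.4 ± 5.95 CPM in TKI testes and 11.3 ± 1.77 CPM in WT testes (adjusted p = 0.634, edgeR's quasi-likelihood test).

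The other largest fitted differences of antisense circles also rested on 1 count in a genotype. A 732-base circle over Lrrc52, a sperm potassium channel subunit gene, had 5, 1 and 1 counts in TKI testes and 1, 0 and 0 in WT testes, a ratio of 6.13 with a counting interval from 0.787 to 276. A 788-base circle over Cntnap5c had 0, 0 and 1 counts in TKI testes and 3, 4 and 0 in WT testes, a ratio of 0.125 with an interval from 0.00277 to 0.973. The circles over Izumo3 (69276 bases), Bbs7, Sdc4 and Inpp5d had 1 count in TKI and 4 to 6 in WT testes. Those over Gm12374 and Ugt2b34 (26497 bases) had 4 counts in TKI and 1 in WT testes.

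Among intronic circles, 2 circles of Gm29427 stood far above the rest. They lie on the minus strand of chromosome 1, at chr1:130682149-130684070 and chr1:130682149-130684073, and differ by 3 bases at 1 end, the 5′ end on the minus strand. The 1922-base circle had 17, 15 and 16 counts in TKI testes and 14, 14 and 10 in WT testes. Every TKI count was above every WT count, yet the counts overlapped once scaled by library and the log2 difference was 0.18 ± 0.39 (SE; adjusted p = 0.979, edgeR's quasi-likelihood test). The 1925-base circle had 13, 16 and 10 counts in TKI testes and 6, 12 and 19 in WT testes, a log2 difference of −0.10 ± 0.42 (SE; adjusted p = 0.979, edgeR's quasi-likelihood test). Linear Gm29427 RNA stood at 0.142 FPKM, so the gene assigned to the most counted intronic circles had almost no linear RNA in the mRNA table. Whether the circles come from its transcript was not tested. With ends 3 bases apart, the 2 circles share almost all their sequence and are not independent.

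The next intronic circles had 23 and 18 counts in all. The 507-base circle of Ccdc146, a sperm flagellum gene, had 5, 0 and 9 counts in TKI testes and 1, 4 and 4 in WT testes. The 2047-base circle of Lrrc8b, a subunit gene of the volume-regulated anion channel, had 1, 0 and 4 counts in TKI testes and 2, 9 and 2 in WT testes (log2 difference −1.54 ± 1.02, SE). The genotypes overlapped in both, and 9 of the Lrrc8b counts came from WT library 2. The circles of Gm44748, Immp2l and Asap1 (1109 to 29717 bases) likewise overlapped.

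Fgfr2, the gene of a fibroblast growth factor receptor, is named for 6 intronic circles with 32 counts, and none of them lies in the RefSeq span of Fgfr2. They lie 128 to 2561 kb from it on chromosome 7, inside Ate1, Fam53b or Eef1akmt2, on the strand of those genes. Summed, they had 6, 7 and 6 counts in TKI testes and 5, 5 and 3 in WT testes, which overlapped once scaled by library circle totals. The most counted of them, 9505 bases in Eef1akmt2, had 4, 3 and 2 counts in TKI testes and 1, 1 and 2 in WT testes. The name in the table is therefore no guide to the gene these circles come from.

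Kcnq3, a potassium channel subunit gene, had 5 intronic circles with 0, 13 and 7 counts in TKI testes and 3, 1 and 0 in WT testes. TKI library 2 gave 13 of the 24 counts and TKI library 1 none, so the genotypes overlapped. The 1655-base Kcnq3 circle had 0, 7 and 3 counts in TKI testes and 1, 1 and 0 in WT testes, a ratio of 4.38 with a counting interval from 0.933 to 41.1. Macrod2, a gene of an ADP-ribose hydrolase, had 5 circles with 0, 2 and 2 counts in TKI testes and 7, 1 and 1 in WT testes. Magi2, a membrane scaffold gene, had 4 circles with 6, 1 and 2 counts in TKI testes and 3, 7 and 2 in WT testes. The 4 circles of Gm32828 had 2, 3 and 5 counts in TKI testes and 2, 0 and 4 in WT testes. Immp2l, a gene of a mitochondrial inner membrane peptidase, and Cfap299, a cilium and flagellum gene, had 3 circles each, with 7 and 3 counts in TKI testes and 10 and 4 in WT testes. In none of these genes did the summed counts separate the genotypes.

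The largest fitted falls among intronic circles were in Gpc5, Magi2, Thegl, AC174800.1 and Cdk19. The 7348-base circle of Gpc5, a glypican gene, had 0, 1 and 0 counts in TKI testes and 2, 4 and 2 in WT testes, a ratio of 0.109 with a counting interval from 0.00247 to 0.816. Its adjusted p was 0.979 in edgeR's quasi-likelihood test. The 4761-base Magi2 circle had 1, 0 and 0 counts in TKI testes and 3, 2 and 1 in WT testes. The largest fitted rises, besides the Kcnq3 circle, were the 24094-base circle under the name Fgfr2 and circles in Asap1 (1963 bases), Phf21a and AC134458.2. None of them passed the test.

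Of the genes named for these circles, 182 were tested as linear RNA and 5 were called (2.75%). Of 148 genes with antisense circles, 125 were tested as linear RNA and 4 were called (3.20%), and of 86 genes with intronic circles, 63 were tested and 1 was called (1.59%). Over all genes tested 155 of 15787 were called (0.982%). At an unadjusted p under 0.05 in edgeR's quasi-likelihood test stood 27 of the 125 and 8 of the 63, against 12.9% of all genes tested. Prm2 was higher in TKI testes, at 2243 ± 216 CPM, against 1556 ± 149 CPM in WT testes, with a log2 difference of 0.53 ± 0.09 (SE; adjusted p = 0.0289, edgeR's quasi-likelihood test). Lelp1 rose by 0.48 ± 0.06 on the log2 scale (adjusted p = 0.0136, edgeR), Stip1, a co-chaperone gene, by 0.34 ± 0.06 (adjusted p = 0.0346, edgeR) and Pa2g4, a growth regulator with an intronic circle, by 0.31 ± 0.06 (adjusted p = 0.0388, edgeR). Slc2a3, a glucose transporter gene, was at 120 ± 24.3 CPM in TKI testes and 208 ± 5.89 CPM in WT testes, a log2 difference of −0.79 ± 0.12 (SE; adjusted p = 0.0206, edgeR). The circles of Lelp1, Stip1, Slc2a3 and Pa2g4 had 2 to 5 counts each, too few to set beside the linear change. None of the 5 genes was called without WT library 2, nor without WT library 3. Both classes shared 6 genes: Ankrd28, Cdk19, Cntnap2, Gpat2, Mov10l1 and Ttll11.

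Of 37 listed genes that act on lariats or circular RNAs, 36 were tested and 1 was called, with a median log2 difference of 0.03 against 0.00 over all genes. Dbr1, the enzyme that opens lariats, had 93, 114 and 101 counts in TKI testes and 93, 113 and 124 in WT testes, a log2 difference of −0.20 ± 0.17 (SE; adjusted p = 0.709, edgeR's quasi-likelihood test). Aqr, a helicase that binds introns in the spliceosome, differed by 0.06 ± 0.05, and Dhx15 and Tfip11, which take the spent lariat spliceosome apart, by −0.10 ± 0.06 and 0.07 ± 0.06 (log2, SE). None of these 4 passed the test. Hnrnpm, a splicing regulator, was at 72.2 ± 2.11 CPM in TKI testes and 57.2 ± 1.91 CPM in WT testes, a log2 difference of 0.33 ± 0.06 (SE; adjusted p = 0.0442, edgeR's quasi-likelihood test). It lost this call without any 1 of the 6 libraries and with the replicate number as a block.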

How the data were processed

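The deposited circular RNA table holds the authors' counts per circle and library, their RPM (counts relative to all circle counts of the library), a log2 ratio between genotypes, a signal per genotype (mean RPM, with zeros replaced), a p-value with its adjusted value, and a circle length, per the file headers. The deposited mRNA table holds counts and FPKM per gene and library, per the file headers. Per the submitters' processing notes, reads were placed on mm10. Which aligner, circle caller, annotation and test the authors used, and whether strand was used, is not given in the sources used here. Members and lists were chosen with earlier results of these data known.

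Counts were tested over whole tables with edgeR 4.0.16 (TMM, quasi-likelihood, Benjamini-Hochberg, two-sided) in R 4.3.3, for circles above 0 in at least 3 of 6 libraries and genes passing filterByExpr. SE came from the F statistic. CPM is relative to circle counts or gene counts. Alternatives were DESeq2 1.42.0, limma 3.58.1 on log2 of the deposited RPM plus 10, other library sizes, other filters, a replicate block and each library left out. The fit was tested on simulated data. The main fit took the libraries as unpaired, and whether the replicate numbers pair them was not tested. Same-numbered TKI and WT libraries correlated at −0.01 to 0.01 for circles and at 0.137, 0.078 and 0.032 for genes, not all over 0.1. Differently numbered ones correlated at −0.025 to 0.013 for circles and at −0.125 to 0.046 for genes. With the replicate block, edgeR called 178 genes, against 155 without it. It put 79 circles at an unadjusted p under 0.05, against 191 without it. Libraries of a genotype differed by 1.66 to 1.89 times counting noise (chi-square per degree of freedom) in circles, so none repeated another. The common coefficient of variation was 43.4% for circles and 11.1% for genes. Shares have exact intervals that cover counting error only.

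Circles named are those called, the 10 most counted, the 5 largest fitted rises and falls, the 3 longest and shortest of each class, and those of genes with 3 or more. Circles outside that rule (over Prm1, Tnp2, Clu, Esyt1, the second Hdac8 circle and Umad1, and circles of called genes) were chosen after their values were seen. RefSeq tables of GRCm38.p6 were matched by symbol and position.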

Additional observations from a re-analysis of the deposited data

How the results depend on the processing

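Over 549 alternative values of 48 named circles, 516 kept their direction and side of the threshold, 32 changed sign in 16 circles that were never called, and 1 became called. The counts of circles and of antisense circles called were 0 under all alternatives but 1, and ran from 0 to 1 with each library left out, the 1 being the 17094-base Ppp2r3d circle without TKI library 2. The count of intronic circles called stayed at 0. Host genes called numbered 5, 9 with DESeq2 and 0 to 3 with each library left out. All genes called numbered 155, 460 with DESeq2 and 11 to 125 with each library left out. The listed lariat and circle genes called numbered 1 and fell to 0 with the replicate block and 0 to 0 with each library left out. The block left the count of circles called at 0 and changed no other call of a count listed here by over 1.5 times. The log2 difference of the antisense share ran from −0.16 to 0.19 and that of the intronic share from −0.19 to 0.09. Fewer libraries lower the power of each fit, and the cause of the other changes was not tested. Depth limits both classes, with medians of 4 and 3 counts per circle.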
